A study of Mus musculus with 85 samples.

Results

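Hlf, Tef, Dbp and Nfil3 are 4 related transcription factor genes of the basic leucine zipper (bZIP) class, taken here by symbol with every probe set the array carries for them. They were 4 of the 18194 genes named on the array and held 8 of its 45101 probe sets. Hlf was read by probe sets 1434735_at and 1434736_at, Tef by 1424175_at, 1438033_at and 1450184_s_at, Dbp by 1438211_s_at and 1418174_at, and Nfil3 by 1418932_at alone. All 4 genes were among the 10695 genes above background in at least 3 cells, which are called measured genes below.

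Hlf, Tef and Dbp make up the PAR bZIP family, named for a proline- and acid-rich stretch beside the DNA-binding region. They bind as dimers to a shared DNA element, the D-box, mostly as activators, and Dbp and Tef are known as outputs of the circadian clock in liver and other tissues. Nfil3, also called E4BP4, binds the same element mostly as a repressor and is needed for several lymphoid lineages. Hlf is known as a marker and regulator of blood stem cells in mouse, and in human leukemia its DNA-binding end is found fused to E2A.

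The study placed single sorted cells from mouse embryos on whole-genome Affymetrix arrays, 1 cell to an array. The caudal part of embryos with the eR1-GFP reporter, in which a Runx1 enhancer drives GFP, gave 7 endothelial cells (EC) and 7 hemogenic endothelial cells (HEC), the vessel cells that give rise to blood, at embryonic day (E) 10.5. EC were sorted as eR1-GFP negative and HEC as eR1-GFP positive, both as CD31 positive and negative for Ter119, CD45 and CD41. Blood cluster cells, which bud from the wall of the aorta, came from wild type embryos as c-Kit+, CD31+, CD45+ and SSEA1- cells, with 28 cells taken from the caudal part at E10.5 and 16 taken at E12.5, there from the region of aorta, gonad and mesonephros. The E14.5 fetal liver of wild type embryos gave hematopoietic stem cells (HSC), sorted as CD150+, CD48-, c-Kit+, Sca-1+, Lin- and Mac-1+ cells. Of their 27 arrays, those of cells 20 and 21 held nearly the same values (r = 0.991, next closest pair of arrays 0.859) and were averaged, so 26 HSC and 84 cells in all were used.

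The cells are labelled as biological replicates with no animal, litter or culture named, so each population stands for 1 sample, and populations were compared without a test. SDs and ranges are over cells. A log2 value over 5 was taken as above background, as 17.6% of all values were, and a gene is called higher or lower where 2 population means differ by 1 log2 unit or more. The number of probe sets above background in a cell, with lowest, median and highest, was 3867, 5689 and 8269 in EC, 6630, 7793 and 9020 in HEC, 8207, 9925 and 11435 in cluster cells of E10.5, 4092, 7874 and 11029 in those of E12.5, and 4712, 6540 and 8447 in HSC. The median difference over all measured genes followed it, at 0.82 in HEC minus EC, 0.71 in E10.5 cluster minus HEC, -0.66 in E12.5 minus E10.5 cluster, and -0.54 and -1.29 in HSC minus the E12.5 and the E10.5 cluster. After quantile normalization these medians were 0.0, 0.19, -0.03, 0.01 and -0.04. The mean log2 value over 6 endothelial genes had a median over cells of 11.13 in EC and 12.15 in HEC, and of 3.32, 2.37 and 3.79 in E10.5 cluster cells, E12.5 cluster cells and HSC. The genes of several cells did not match their sort, and 6 of them were left out in an alternative. EC cell 3 held the germ cell gene Dppa3 and lacked Cdh5, cells 3, 6 and 10 of the E12.5 clusters had C1qb, a macrophage gene, at 15.69, 15.59 and 15.88, and HSC 5 and 7 held Lyve1, a gene of liver sinusoids, at 15.05 and 14.73 and lacked Ptprc, which encodes CD45. Ptprc was also at background in E10.5 cluster cells 13 and 15, in cell 4 of the E12.5 clusters, which had C1qb at 10.07, and in HSC 10 and 23, and a further alternative left these 5 out too, 11 cells in all.

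The promoters of Hlf and Tef are shown because these were the members whose mean in HSC was at least 1 log2 unit above that of both cluster populations. They are RefSeq sequences of build GRCm38.p6, covering 250 bases before to 50 bases after a gene start. Hlf lies on the minus strand of chromosome 11 (window chr11:90390868-90391167). Its window holds 1 cyclic AMP response element, TGACGTCA, shown in capitals, which begins at position -9 relative to the start. Tef lies on the plus strand of chromosome 15 and has 2 annotated starts, with windows chr15:81802423-81802722 and chr15:81811164-81811463. Each Tef window holds 1 E-box, CACGTG, the element of the clock activators Clock and Arntl, shown in capitals, which begins at position -127 in the first and -138 in the second.
Hlf promoter: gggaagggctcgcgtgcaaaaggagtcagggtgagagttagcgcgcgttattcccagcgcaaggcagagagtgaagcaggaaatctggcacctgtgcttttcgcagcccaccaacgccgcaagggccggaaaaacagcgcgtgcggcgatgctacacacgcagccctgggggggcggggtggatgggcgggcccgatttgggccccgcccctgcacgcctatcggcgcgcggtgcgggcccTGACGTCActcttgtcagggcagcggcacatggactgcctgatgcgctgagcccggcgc
Tef promoter 1: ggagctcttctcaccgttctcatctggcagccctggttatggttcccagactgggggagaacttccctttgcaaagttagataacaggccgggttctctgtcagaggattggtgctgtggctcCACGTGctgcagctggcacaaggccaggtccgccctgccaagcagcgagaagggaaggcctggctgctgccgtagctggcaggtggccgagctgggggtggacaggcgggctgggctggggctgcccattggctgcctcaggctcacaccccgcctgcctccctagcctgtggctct
Tef promoter 2: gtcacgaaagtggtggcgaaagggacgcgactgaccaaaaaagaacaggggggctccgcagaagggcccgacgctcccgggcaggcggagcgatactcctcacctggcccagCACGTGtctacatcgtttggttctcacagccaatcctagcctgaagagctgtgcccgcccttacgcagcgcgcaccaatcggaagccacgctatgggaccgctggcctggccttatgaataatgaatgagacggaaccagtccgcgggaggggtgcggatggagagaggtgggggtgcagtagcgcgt
Each of 4 motifs was searched on both strands in all 32851 promoter windows of this length. The E-box was in 7.15% of them, the cyclic AMP response element in 1.79%, the D-box (TTATGTAA or TTACGTAA) in 1.06% and the ROR element (TAGGTCA) in 2.61%. No member's window held a D-box by these letters, the Dbp window (chr7:45704997-45705296, plus strand) held none of the 4 motifs, and the Nfil3 window (chr13:52980990-52981289, minus strand) held 1 ROR element that begins at position -12. The windows had 67.3% G and C with 30 CpG for Hlf, 64.0% with 9 and 62.0% with 25 for Tef, 60.3% with 18 for Dbp and 81.7% with 54 for Nfil3, against medians of 52.7% and 7 over all windows.

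Hlf was above background in most HSC and in a minority of cells of each other population but EC, where no cell held it. On probe set 1434735_at the lowest, median and highest log2 values were 2.32, 2.37 and 2.41 in EC, 2.31, 2.33 and 8.47 in HEC, 2.19, 2.3 and 10.86 in cluster cells of E10.5, 2.28, 2.33 and 11.11 in those of E12.5, and 2.3, 9.2 and 11.91 in HSC. The median cell was thus at background in the first 4 populations and far above it in HSC, while single cluster cells reached the HSC range. Means were 2.37 ± 0.03 in EC (SD over 7 cells), 3.21 ± 2.32 in HEC (7 cells), 3.75 ± 2.82 in cluster cells of E10.5 (28 cells), 3.20 ± 2.30 in those of E12.5 (16 cells) and 8.46 ± 3.09 in HSC (26 cells). Their order from the top was HSC, E10.5 cluster, HEC, E12.5 cluster and EC, and the last 4 differed by less than the SD over the cells of HEC or of either cluster population.

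Counted on either probe set, Hlf passed the background limit in 0 of 7 EC, 1 of 7 HEC, 8 of 28 cluster cells at E10.5, 2 of 16 at E12.5 and 22 of 26 HSC. As shares these are 0% with an exact (Clopper-Pearson) 95% interval up to 41.0% in EC, 14.3% (0.361 to 57.9%) in HEC, 28.6% (13.2 to 48.7%) in cluster cells of E10.5, 12.5% (1.55 to 38.3%) in those of E12.5 and 84.6% (65.1 to 95.6%) in HSC. Such intervals cover counting error over cells only. The HSC interval lay above those of all other populations, which overlapped each other.

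**Figure D1:**
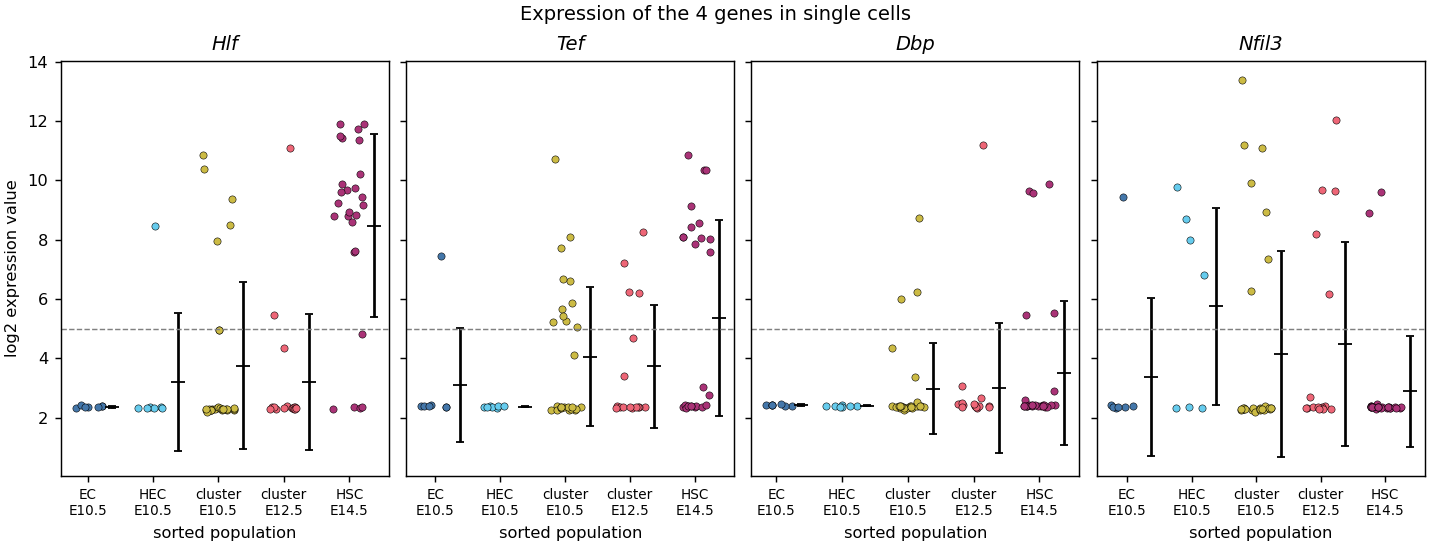
Log2 value of each gene in every cell (points) on the probe set that represents it, by population, with the mean and SD over cells (bars) and the background limit of 5 (dashed line). Most HSC lie high for Hlf, while most cells of every population lie at background for Dbp, and of every population but HEC for Nfil3.

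HSC had a mean Hlf level 5.27 log2 units above E12.5 cluster cells and 4.72 above E10.5 cluster cells. The first was the 10th highest difference of the 10695 measured genes and the second the 14th highest. In HSC minus E12.5 cluster cells 7.91% of measured genes were called higher and 36.9% lower (44.8% either way), and in HSC minus E10.5 cluster cells 5.01% were called higher and 55.5% lower (60.5% either way). After quantile normalization the Hlf differences were 5.82 and 5.53, and without the 6 cells that go against their sort they were 5.58 and 5.23, and without all 11 cells 6.02 and 5.48. Leaving out any 1 cell kept the first between 5.13 and 5.80 and the second between 4.58 and 4.98. The 2 comparisons share the HSC arrays.

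Before the HSC stage the Hlf differences were small against the spread of cells. HEC minus EC was 0.84, next to the all-gene median of 0.82, and rests on HEC cell 2, at 8.47 on 1434735_at and 2.38 on 1434736_at. E10.5 cluster minus HEC was 0.54 and E12.5 minus E10.5 cluster -0.55. Single cells moved these across the limit: E10.5 cluster minus HEC was 1.42 without HEC cell 2, and E12.5 minus E10.5 cluster was -1.08 without E12.5 cluster cell 9. With the higher Hlf probe set in each cell in place of 1434735_at they were 1.02 and -1.03.

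The 2 Hlf probe sets agreed in most cells. In HSC both were above background in 17 cells, 1434735_at alone in 4 and 1434736_at alone in 1. In E10.5 cluster cells both were in 4, 1434735_at alone in 1 and 1434736_at alone in 3. Their values correlated at r = 0.84 over the 84 cells, a description that includes the difference between populations. Just outside the limit lay HSC cell 15 at 4.81 and E10.5 cluster cells 17 and 24 at 4.97 and 4.95 on 1434735_at, which were all above it on 1434736_at, and E10.5 cluster cell 1, at 4.99 on 1434736_at, which was not counted.

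**Figure D2:**
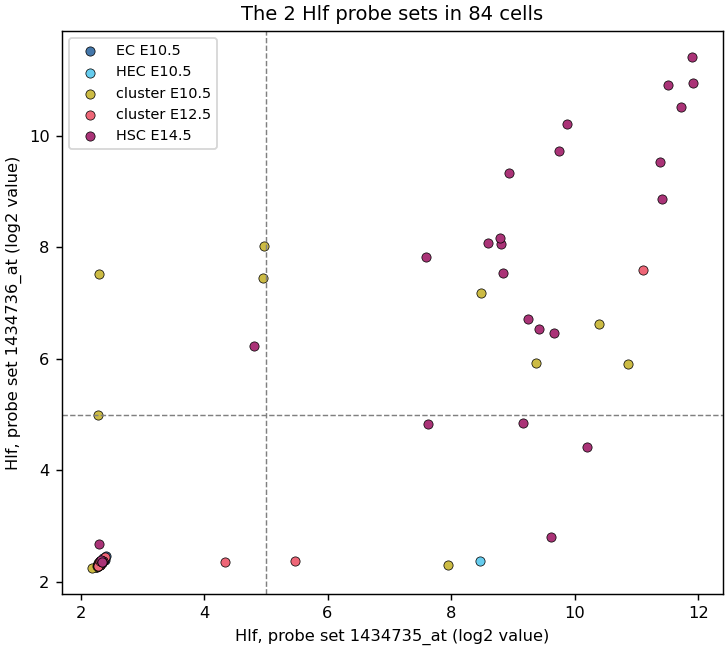
Log2 value of Hlf on probe set 1434736_at against 1434735_at in 84 cells, coloured by population, with dashed lines at 5. Most HSC are above the lines on both probe sets (17 of 26), as are 4 E10.5 cluster cells and 1 E12.5 cluster cell.

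In E10.5 clusters the cells with Hlf were those labelled 11, 17, 22, 23, 24, 25, 26 and 28, with 7.45 as the lowest and 10.86 as the highest value on the better probe set. Most of these numbers are close together, whereas the cells with Tef were those labelled 1, 2, 3, 4, 5, 9, 10, 18, 20, 21 and 27. The labels do not say what the numbers stand for, and their part in the result was not tested. In E12.5 clusters Hlf was in cell 9, at 11.11, and cell 13, at 5.47.

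The 4 HSC without Hlf were cells 4, 5, 7 and 23, in which 7928, 6282, 6838 and 7044 probe sets were above background. Cells 5 and 7 are those with Lyve1 and no Ptprc, and also held the endothelial genes Cdh5 (10.62 and 11.17) and Cldn5 (12.05 and 11.89). Cell 23 had Ptprc at 2.34 and Cldn5 at 7.01. Cell 4 had Ptprc at 11.28, Procr at 11.88 and Mecom at 12.07, so it carried other stem cell genes with no Hlf. Without cells 5 and 7 Hlf was in 22 of 24 HSC (91.7%).

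Mecom, a zinc finger gene needed by blood stem cells, was found with Hlf in the blood cells. In E10.5 cluster cells the number with both was 3, of 8 with Hlf and 3 with Mecom. In E12.5 cluster cells it was 1, of 2 with Hlf and 1 with Mecom, and in HSC 22, of 22 with Hlf and 23 with Mecom. The HSC without Mecom were cells 5, 7 and 23, all with Ptprc at background. As every HSC with Ptprc held Mecom, the overlap in HSC says little about Hlf. HEC differed from the blood cells, with Mecom in 6 of 7 cells and Hlf in 1 of those 6. Hoxa9, a homeobox gene of blood progenitors, was found together with Hlf in 3 E10.5 cluster cells (4 with Hoxa9), 2 E12.5 cluster cells (2 with Hoxa9) and 18 HSC (19 with Hoxa9). Of the 14 E10.5 cluster cells with Fgd5, a gene that marks blood stem cells and endothelium, 7 held Hlf, and so did 5 of the 7 with the cell cycle inhibitor gene Cdkn1c. These 4 genes were chosen after their values were seen. Of the 23 HSC regulators found in any E10.5 cluster cell, the share of cells with Hlf among those with the regulator was above the 28.6% of all E10.5 cluster cells for 14, equal to it for 2 and below it for 7, among them Runx1 (5 of 20 with Hlf), Gfi1b (4 of 17) and Prdm16 (0 of 2). Of the 20 found in any E12.5 cluster cell, it was above that population's 12.5% for 13, equal for 1 and below for 6. In HSC, with 84.6%, it was above for 13 of 24 regulators and below for 11.

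**Figure D3:**
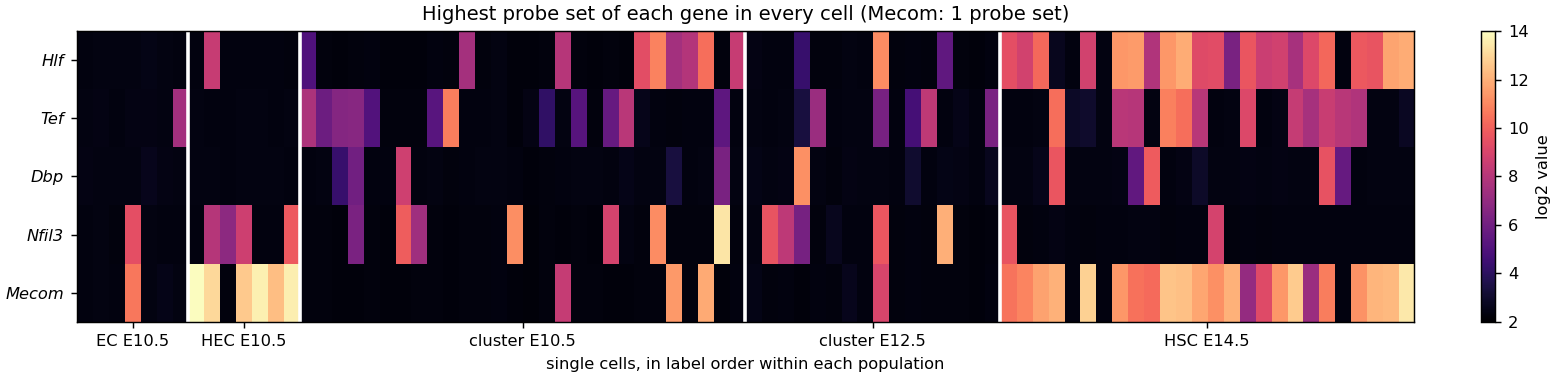
Log2 value (colour, 2 to 14) in each of the 84 cells, in label order within populations divided by white lines. Hlf, Tef, Dbp and Nfil3 are shown by their highest probe set in each cell, and Mecom by the probe set that represents it. In HSC 22 of 22 cells with Hlf are bright for Mecom, but so is every HSC except cells 5, 7 and 23. Of 7 HEC, 6 are bright for Mecom and 1 for Hlf.

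Tef was patchy in every blood population. On probe set 1424175_at the lowest, median and highest values were 2.35, 2.39 and 7.45 in EC, 2.33, 2.36 and 2.39 in HEC, 2.25, 2.36 and 10.73 in cluster cells of E10.5, 2.33, 2.36 and 8.27 in those of E12.5, and 2.31, 2.9 and 10.85 in HSC. All 5 populations overlapped at background, and the highest cells of HSC and of E10.5 clusters reached nearly the same value. Means were 3.11 ± 1.92 in EC, 2.36 ± 0.02 in HEC, 4.05 ± 2.34 in cluster cells of E10.5, 3.72 ± 2.08 in those of E12.5 and 5.37 ± 3.31 in HSC (SD over 7, 7, 28, 16 and 26 cells). From the top the order was HSC, E10.5 cluster, E12.5 cluster, EC and HEC, and no mean was further from the next than the larger of their 2 SDs.

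Tef passed the background limit in 1 of 7 EC (14.3%, 0.361 to 57.9%), 0 of 7 HEC (0%, up to 41.0%), 11 of 28 cluster cells at E10.5 (39.3%, 21.5 to 59.4%), 4 of 16 at E12.5 (25%, 7.27 to 52.4%) and 12 of 26 HSC (46.2%, 26.6 to 66.6%). These intervals all overlap. Values above background ran higher in HSC, from 7.57 to 10.85 with a median of 8.27, than in E10.5 cluster cells, where they ran from 5.07 to 10.73 with a median of 5.86. At a limit of 8 in place of 5 the share was 7.14% in cluster cells at E10.5, 6.25% in those at E12.5 and 38.5% in HSC. Probe sets 1438033_at and 1450184_s_at were above background in 0 of 84 cells, so each Tef value rests on 1 probe set, and the mean of the 3 gave no called difference for HSC (0.59 against E12.5 and 0.50 against E10.5 cluster cells).

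The Tef mean of HSC was 1.65 above that of E12.5 cluster cells, ranked 356 of 10695, and 1.32 above that of E10.5 cluster cells, ranked 366. After quantile normalization these were 2.25 and 2.53, and with the median over cells 0.53 in both. E10.5 cluster minus HEC was 1.69 and called higher, where 43.1% of measured genes were called higher and 15.7% lower (58.8% either way), and it was 0.99 after quantile normalization. E12.5 minus E10.5 cluster was -0.33, with 5.47% of measured genes called higher and 39.9% lower (45.4% either way), and its sign turned to 0.28 after quantile normalization. HEC minus EC was -0.74 and rests on EC cell 7, the EC with Tef.

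Dbp was rare. On probe set 1438211_s_at the lowest, median and highest values were 2.39, 2.42 and 2.46 in EC, 2.36, 2.40 and 2.41 in HEC, 2.27, 2.38 and 8.74 in cluster cells of E10.5, 2.31, 2.42 and 11.21 in those of E12.5, and 2.35, 2.42 and 9.87 in HSC. The median cell was at background in all 5 populations. Dbp passed the background limit in 0 of 7 EC, 0 of 7 HEC, 3 of 28 cluster cells at E10.5 (10.7%, 2.27 to 28.2%), 1 of 16 at E12.5 (6.25%, 0.158 to 30.2%) and 5 of 26 HSC (19.2%, 6.55 to 39.4%). Each cell above background on 1418174_at (2 E10.5 cluster cells, 1 E12.5 cluster cell and 3 HSC) was above it on 1438211_s_at too.

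No Dbp difference reached 1 log2 unit. With means of 2.42 ± 0.03 in EC, 2.39 ± 0.02 in HEC, 2.97 ± 1.53 in cluster cells of E10.5, 3.01 ± 2.19 in those of E12.5 and 3.51 ± 2.43 in HSC, it was -0.03 in HEC minus EC, 0.58 in E10.5 cluster minus HEC, 0.04 in E12.5 minus E10.5 cluster, and 0.50 and 0.54 in HSC minus the E12.5 and the E10.5 cluster. HSC minus E12.5 cluster became 1.04 without E12.5 cluster cell 4, the cell at 11.21, which had Ptprc at background. HSC minus E10.5 cluster was 1.16 after quantile normalization.

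Nfil3 had another pattern, with its highest share of cells in HEC and its lowest in HSC. The 7 HEC had values of 2.34, 7.99, 6.81, 8.70, 2.33, 2.33 and 9.79 on probe set 1418932_at, so 4 were high and 3 at background. Among EC only cell 4 was high, at 9.43, and the other 6 lay at or under 2.42. In E10.5 cluster cells the lowest, median and highest values were 2.2, 2.31 and 13.39, in E12.5 cluster cells 2.28, 2.35 and 12.03, and in HSC 2.30, 2.35 and 9.60. The 13.39 of E10.5 cluster cell 27 was the highest value of any member in any cell.

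Nfil3 passed the background limit in 1 of 7 EC (14.3%, 0.361 to 57.9%), 4 of 7 HEC (57.1%, 18.4 to 90.1%), 7 of 28 cluster cells at E10.5 (25%, 10.7 to 44.9%), 5 of 16 at E12.5 (31.2%, 11 to 58.7%) and 2 of 26 HSC (7.69%, 0.946 to 25.1%). The HSC interval overlaps all the others. Means were 3.38 ± 2.67, 5.76 ± 3.32, 4.16 ± 3.48, 4.48 ± 3.44 and 2.88 ± 1.88 in these populations, and no 2 neighbours in the order of the means (HEC, E12.5 cluster, E10.5 cluster, EC, HSC) differed by more than 1 SD. Of the E12.5 cluster cells with macrophage genes, cell 3 held Nfil3 at 8.19, and without the 3 such cells Nfil3 was in 4 of 13 (30.8%).

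HEC minus EC was 2.38 for Nfil3, ranked 2190 of 10695, where 45.9% of measured genes were called higher and 7.36% lower (53.3% either way). Nfil3 was the 1 member of 4 called there, and its difference was 1.79 after quantile normalization and between 1.71 and 3.39 with any 1 cell left out. E10.5 cluster minus HEC was -1.60, called lower, and -0.93 without HEC cell 7. E12.5 minus E10.5 cluster was 0.32. HSC minus E12.5 cluster was -1.60, called lower, and -0.01 with medians over cells.

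HSC minus E10.5 cluster was -1.28 for Nfil3, called lower but ranked 5308 of 10695 and next to the all-gene median of -1.29. It was -0.89 after quantile normalization and -0.93 without E10.5 cluster cell 27. Over the 4 members, 2 were called higher (Hlf and Tef) and 1 lower (Nfil3) in HSC against either cluster population, where 7.91% of measured genes were higher and 36.9% lower against E12.5 cluster cells, and 5.01% and 55.5% against E10.5 cluster cells.

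**Figure D4:**
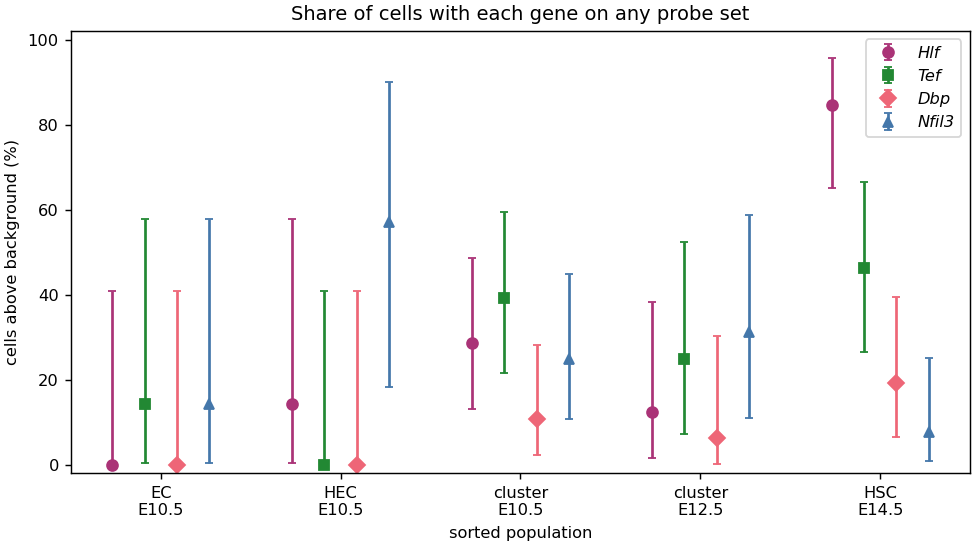
Percentage of cells in which any probe set was above background, with exact 95% intervals for counting error over cells, for the 4 genes in the 5 populations. Hlf stands at 84.6% in HSC against at most 28.6% elsewhere, and Nfil3 is highest in HEC (57.1%) and lowest in HSC (7.69%) with wide intervals.

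Outside HSC the 3 PAR bZIP genes, each in a minority of cells, met in few cells. Tef and Dbp met in 2 E10.5 cluster cells, of 11 with Tef and 3 with Dbp. Hlf and Tef met in 1 E12.5 cluster cell, of 2 with Hlf and 4 with Tef. Such counts depend on how many cells hold each gene, and Hlf was in 22 of 26 HSC. In HSC 10 cells held both Hlf and Tef, of 22 with Hlf and 12 with Tef. In E10.5 cluster cells 8 held Hlf and 11 held Tef with 0 in common, while 9 held neither, although cell 1 had Tef at 7.73 and Hlf at 4.99, just outside the limit. At least 1 of Hlf, Tef and Dbp was in 1 of 7 EC, 1 of 7 HEC, 20 of 28 cluster cells at E10.5, 6 of 16 at E12.5 and 24 of 26 HSC.

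Of the 5 HSC with Dbp 4 held Tef and 0 held Nfil3. The 1 E12.5 cluster cell with Dbp and all 3 E10.5 cluster cells with it held Nfil3. Both E12.5 cluster cells with Hlf (9.69 and 12.03 for Nfil3) and both HSC with Nfil3 held the other gene of the pair too, and in E10.5 cluster cells 1 cell did, of 8 with Hlf and 7 with Nfil3. No cell held all 4 genes, 2 of 28 cluster cells at E10.5, 1 of 16 at E12.5 and 2 of 26 HSC held 3, and 13 HSC held 2. Over 84 cells the highest correlations between members were 0.21 for Tef with Dbp and 0.19 for Hlf with Tef, and after population means were taken off no pair was above 0.16, which in values mostly at background is no finding.

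Hlf had the closest neighbours by pattern. Over the 84 cells Cd27, Gimap8, Gfi1 and Adgrl4 correlated with it at 0.64 and Mecom at 0.62. Cd27 was in 0 of 7 EC, 0 of 7 HEC, 3 of 28 cluster cells at E10.5, 2 of 16 at E12.5 and 15 of 26 HSC. Adgrl4 was in 4 of 7 EC and 6 of 7 HEC as well as in all 26 HSC. After population means were taken off, Hoxa9 (0.51), Mecom (0.50), Igf2 (0.48), Sfrp2 (0.47) and Gimap8 (0.46) came first. HSC 5, 7 and 23, which lacked Ptprc and were at background for both Hlf and Mecom, were kept in these correlations. Their part in the values was not tested. For Tef, Dbp and Nfil3 the first genes were Slc14a1 (0.46, in 5 cells), Clstn3 (0.52, in 3 cells) and G0s2 (0.53, in 4 cells), which rest on few cells. All these values share the same arrays and are descriptions.

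Regulators and markers of blood stem cells were set beside Hlf. Of 24 measured HSC regulators 12 were called higher and 6 lower in HSC minus E10.5 cluster cells, where 5.01% of all measured genes were higher and 55.5% lower (median 1.08, against -1.29 over all measured genes), led by Mecom (7.0), Gfi1 (6.67), Procr (4.94) and Hoxa9 (4.4). In HEC minus EC 15 were called higher and 1 lower (median 2.55), where 45.9% of all measured genes were higher and 7.36% lower (median 0.82), among them Mecom (8.13), Procr (4.98) and Hoxa9 (3.41), while Hlf was 0.84. In E10.5 cluster minus HEC 7 were called higher and 12 lower (median -0.84), where 43.1% of all measured genes were higher and 15.7% lower (median 0.71), with Mecom at -8.54, Procr at -5.38 and Hoxa9 at -3.97, while Hlf was 0.54. In HSC minus E12.5 cluster cells 17 were called higher and 2 lower (median 2.09), where 7.91% of all measured genes were higher and 36.9% lower (median -0.54). After quantile normalization the 4 medians kept their direction. Called higher and lower were then 16 and 1 regulators in HSC minus E10.5 cluster cells (2173 and 2756 of all 10695 measured genes). In HSC minus E12.5 cluster cells they were 18 and 1 (1850 and 2053 of all measured genes). They were 13 and 5 in HEC minus EC (2714 and 2305) and 5 and 12 in E10.5 cluster minus HEC (2972 and 2433). Without the 6 cells that go against their sort, 13 regulators were higher and 3 lower in HSC minus E10.5 cluster cells (538 and 5949 of all 10695 measured genes). They were 16 and 2 in HSC minus E12.5 cluster cells (885 and 4070), and 14 and 0 in HEC minus EC (5298 and 672).

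The core clock, which drives Dbp and Tef in adult tissues, was partly present. Of 20 clock genes on the array 13 were measured, and Nr1d1, Per3, Npas2, Arntl2, Rorb and Bhlhe41 were above background in 0 of 84 cells. Arntl, the clock activator, was in 16 of 28 cluster cells at E10.5, 5 of 16 at E12.5 and 15 of 26 HSC, and Clock in 4, 3 and 2. In E10.5 cluster minus HEC 7 clock genes were called higher and 2 lower (median 1.19), with Per1 at 3.81, Nr1d2 at 3.55 and Arntl at 3.23. The share of all measured genes called higher there was 43.1% (median 0.71), near that of the clock genes. After quantile normalization 5 clock genes were higher and 3 lower (median 0.34), beside 2972 and 2433 of all 10695 measured genes. In HSC minus E10.5 cluster cells 0 were called higher and 5 lower (median -0.87, against -1.29 and 55.5% lower over all measured genes), with Timeless at -4.10 and Nr1d2 at -2.74. But after quantile normalization 5 were higher and 3 lower (median 0.34), beside 2173 and 2756 of all measured genes. As deposited, the clock counts higher and lower in HEC minus EC were 2 and 3 of 13 (45.9% and 7.36% over all measured genes). In E12.5 minus E10.5 cluster they were 0 and 6 (5.47% and 39.9%), and in HSC minus E12.5 cluster 1 and 1 (7.91% and 36.9%).

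The C/EBP genes, a neighbouring bZIP group, are regulators of myeloid cells and stress. Of 5 measured genes 0 were called higher and 4 lower in HSC against each cluster population (median -1.74 against E10.5 and -1.42 against E12.5). Over all measured genes 55.5% were lower against E10.5 (median -1.29) and 36.9% against E12.5 cluster cells (median -0.54). Cebpa, the myeloid regulator, was in 12 of 28 cluster cells at E10.5, 7 of 16 at E12.5 and 0 of 26 HSC. After quantile normalization 3 and 2 were lower and 0 higher, beside 2756 and 2053 of all 10695 measured genes lower. In E10.5 cluster minus HEC 4 C/EBP genes were called higher and 0 lower (median 1.94), where 43.1% of all measured genes were higher, led by the stress gene Ddit3 (3.96).

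**Figure D5:**
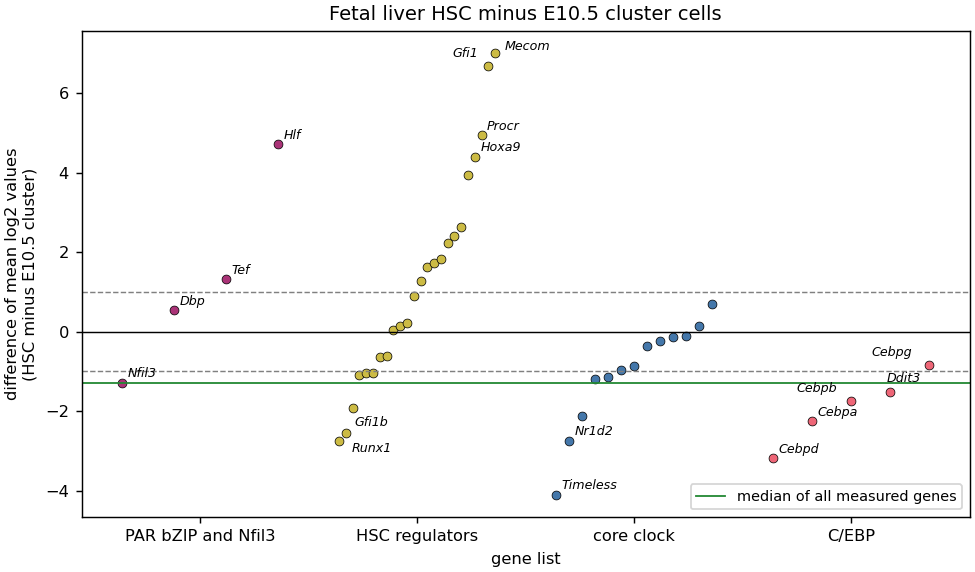
Difference of mean log2 values, HSC minus E10.5 cluster cells, for the measured genes of 4 lists (points), with the median of all measured genes (green line, -1.29) and the limits of 1 and -1 (dashed). Hlf (4.72) lies among the top HSC regulators, and all 5 C/EBP genes lie under 0.

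Few target genes could be read. Of 7 listed D-box target genes on the array 3 were measured. Alas1, for heme synthesis, was in 17 of 26 HSC and 24 of 28 E10.5 cluster cells, and Pdxk, for vitamin B6 activation, in 16 and 22, with HSC minus E10.5 cluster differences of -0.54 and -1.15, which turned to 2.44 and 1.42 after quantile normalization. Dio2, a thyroid hormone enzyme gene, was in 3 HSC and no other cell. Of the human E2A-HLF fusion's targets 3 of 6 were measured, with Lmo2 in 26 of 28 cluster cells at E10.5, 9 of 16 at E12.5 and 25 of 26 HSC. The other measured targets were in fewer of these cells, Bcl2 in 2, 0 and 7 and Snai2 in 0, 1 and 1. Lmo2 was also in 7 of 7 HEC, where Hlf was in 1. Of the lymphoid genes that depend on Nfil3, 3 of 5 were measured. Id2 was in 5 of 7 HEC and 1 of 7 EC, a difference of 3.50 where Nfil3 was 2.38. Tox was -0.04 and Zbtb16 -0.03 there, and 45.9% of all measured genes were called higher. In E10.5 cluster minus HEC, where Nfil3 was -1.6, Id2 was -4.19, Tox 1.06 and Zbtb16 3.7. In HSC minus E12.5 cluster cells, where Nfil3 was -1.6 too, Id2 was -2.21, Tox -2.71 and Zbtb16 -4.66. There 36.9% of all measured genes were called lower.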

How the data were processed

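The deposited values are log2 expression values per probe set, which the authors made with GCRMA and affy, per the submitters' processing notes. Versions were not given in the sources used here. Their distributions differed between arrays, and they were not normalized again for the main values. Of the array's probe sets 34958 carried 1 gene symbol and were used, and for each gene the probe set brightest on average, with the 5 populations given equal weight, stands for it. Control probe sets Dap and Phe held a value shared across arrays (12.64 on 82 and 9.50 on 65 of the 85), both on 62. The correlation limit of 0.95 for averaging near-identical arrays was chosen after the values were seen.

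With 1 cell to a sample and no animal named, differences of mean log2 values were taken between neighbouring populations and between HSC and E10.5 cluster cells, with no test. The threshold of 5, the limit of 1 log2 unit and exact Clopper-Pearson 95% intervals were used throughout, and the number of arrays limits precision. Named genes were the 4 members, the genes of the lists, and for each member the 5 genes with the highest Pearson r over cells, with and without population means. Alternatives were other normalizations, probe sets, thresholds and summaries, leaving out each cell in turn, and leaving out 6 cells that go against their sort, or 11 with the other blood cells that had Ptprc at background. The members, gene lists, motifs and those cells were chosen with earlier results of these data known, so what earlier work showed is no independent support. Promoter sequences came from RefSeq, with 250 bases before and 50 after each start. Calculations used Python 3.11.15 with pandas 2.3.3, numpy 2.4.6 and scipy 1.17.1, and were tested on simulated data.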

Additional observations from a re-analysis of the deposited data

Results flagged for a closer look

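In groups of 4 to 10 cells a value was singled out when its gap to the next cell took up most of the group's range (Dixon's 95% limit). EC and HEC have 7 cells each, and 5 of 16 groups of these cells and probe sets gave such a cell. The limit's rate of about 1 in 20 holds for normally distributed values, whereas most of these lie at background. The groups also share the same cells, so their number cannot be set against chance. HEC cell 2 had Hlf (1434735_at) at 8.47, with the next HEC at 2.35. EC cell 7 had Tef (1424175_at) at 7.45, with the next EC at 2.41, and was highest on the Tef probe set 1450184_s_at too, at 2.92 against 2.45, both at background. EC cell 5 had Dbp (1418174_at) at 2.63 against 2.39, also at background. EC cell 4 had Nfil3 at 9.43, with the next EC at 2.42, and was also the 1 EC with Mecom, at 10.62.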

How the results depend on the processing

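No paired analysis was possible because the results come from no test and the labels do not say that a number pairs cells across populations. Recomputed differences counted as the same if they moved by less than the spread between cells, and counts if they kept within 1.5 times. Shares of cells counted as the same if they lay inside the exact interval of the main share. Such intervals are wide in small populations (0 to 41.0% for Hlf in EC), so this rule is lenient for shares. The rule for differences is lenient too where cells spread widely, as a call can be lost and still count as the same. Nfil3 in HSC minus E10.5 cluster went from -1.28 to -0.89 after quantile normalization in this way. By these rules 407 of 448 recomputed values outside the leave-one-out runs were the same, 40 moved further and 1 called difference changed sign. That 1 was Nfil3 in HSC minus E10.5 cluster, 0.04 with the median over cells, which also put Tef in E10.5 cluster minus HEC at 0.0. Dbp in HEC minus EC was -1.01 with an equal median of values over background and -0.05 with the highest probe set in each cell. An equal median shifts every value of an array, background values included, and Dbp was at background in all EC and HEC. Cebpa and Gfi1, also at background in all of these cells, were at -1.01 too. For Hlf the differences of HSC stayed above 1 log2 unit under each alternative, from 4.83 to 6.88 against E12.5 and from 4.11 to 6.91 against E10.5 cluster cells. Other differences crossed that limit or turned sign. With an equal median, HEC minus EC was -1.72 for Tef and -0.13 for Hlf, and E10.5 cluster minus HEC was 1.05 for Hlf and 1.08 for Dbp. With only the arrays that held both shared control values, HEC minus EC was 1.19 for Hlf, E12.5 minus E10.5 cluster was 1.31 for Nfil3 and -1.0 for Tef, and HSC minus E10.5 cluster was -0.46 for Nfil3. Tef shares moved most with the threshold: 0% of EC at 8, 17.9% of E10.5 cluster cells at 6 or after quantile normalization and 7.14% at 8, and 6.25% of E12.5 cluster cells at 8. E12.5 cluster cells with Hlf and Tef were 0 at 8, and with Hlf and Nfil3 1 at 6 and at 8. With 1 cell left out, the share ran from 0 to 16.7% for Tef in EC, Nfil3 in EC and Hlf in HEC, and from 0 to 6.67% for Dbp in E12.5 cluster cells, which was 0% without the 11 cells.

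Genes called higher after quantile normalization were 2714 in HEC minus EC, 2972 in E10.5 cluster minus HEC, 1611 in E12.5 minus E10.5 cluster, 1850 in HSC minus E12.5 cluster and 2173 in HSC minus E10.5 cluster. Called lower were 2305 in HEC minus EC, 2433 in E10.5 cluster minus HEC, 2019 in E12.5 minus E10.5 cluster, 2053 in HSC minus E12.5 cluster and 2756 in HSC minus E10.5 cluster. In HEC minus EC an equal median gave 2845 higher and 3278 lower, and medians over cells gave 517 lower, with 270 higher in HSC minus E10.5 cluster. Of the 5 most similar genes, Spearman's rho kept 3 for Hlf, 1 for Tef and 0 for Dbp and Nfil3, and 1, 2, 1 and 2 with population means taken off. Quantile normalization kept 2 for Tef and 3 for Dbp and Nfil3, and 3, 1, 3 and 3 with means taken off. The cause of these shifts was not tested. Counting list members without the 6 doubted cells was added after the data were seen, as were leaving out 11 cells and counting 1 probe set for each gene.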
